A study of Mus musculus with 12 samples.

Results

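Matrix metalloproteases (Mmp genes), Adamts proteases and tissue inhibitors of metalloproteases (Timp genes) were described in RNA from mouse dorsal root ganglia (DRG). The set holds every gene of the table whose symbol is Mmp, Adamts or Timp followed by a number (with a or b for a pair of Mmp1 copies), whatever its expression. This gave 46 of 24490 genes, of which 23 are Mmp genes, 19 are Adamts genes and 4 are Timp genes. The samples came from adult C57Bl/6 mice in 3 groups of 4 samples. Intact DRG were whole ganglia, frozen at once, from 1 mouse per sample. Unsorted samples held DRG cells of 2 mice each after dissociation with dispase, collagenase and DNAse, and MACS-sorted samples held cells of 8 mice each, dissociated in the same way and passed over a magnetic column that kept back antibody-labelled non-neuronal cells. The sort leaves the cells that carry no label, so MACS-sorted samples were chosen by what was removed and not by a neuronal marker. The comparisons ask what the magnetic sort and what the dissociation change in the ganglion's RNA.

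Both protease families are zinc enzymes that cut proteins of the extracellular matrix and the cell surface. Mmp enzymes are made as inactive precursors and are opened by plasmin, furin-type proteases or other Mmp enzymes, and some are anchored in the plasma membrane while others are secreted. Adamts enzymes are secreted, and their best known substrates are proteoglycans such as aggrecan, brevican and versican and the propeptides of fibrillar collagens. Timp proteins bind the active enzymes and block them, and in nerve tissue the balance of the families has been studied for matrix turnover after injury.

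Expression is given in FPKM, fragments per length of transcript and per number of mapped fragments, so levels can be set side by side between genes per length. Absolute depth is not part of the FPKM table. The spacing of the lowest values gave each library's depth as a percentage of that of intact replicate 1: 100, 113, 119 and 113% for intact replicates 1 to 4, 106, 113, 101 and 96.3% for unsorted and 82.9, 95.9, 105 and 88.97% for MACS-sorted replicates. The shallowest library was MACS-sorted replicate 1. A value of 0 is reported as listed at 0 and not as absence, because Hba-a1, an α-globin gene, was listed at 0 in all 12 samples while Hba-a2 reached 4517 FPKM.

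Several libraries stood apart before any comparison was made. In intact replicate 1 the 7 skeletal muscle markers summed to 2602, 58.5, 14.1 and 15.5 FPKM in replicates 1 to 4, in that order, and Dcn, a fibroblast proteoglycan, was at 518, 244, 215 and 239.9 FPKM. Over 8263 genes whose mean reached 5 FPKM, intact replicate 1 differed from the other intact replicates by a median of 0.289 to 0.322 on the log2 scale, and the others differed among themselves by 0.0763 to 0.0929. Unsorted replicates 1 and 2 were the closest pair of a group, at 0.0528. MACS-sorted replicates 3 and 4 were rich in red blood cell transcripts, with summed marker levels of 1678, 2532, 12538 and 15360.2 FPKM in replicates 1 to 4. MACS-sorted replicate 4 kept the most RNA of glial and fibroblast markers of its group, and replicate 2 held the least RNA of endothelial markers, as given below. Results were recomputed without each of these libraries, and members whose call this moved are named with the results.

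Of the 46 genes, 7 were listed at 0 in all 12 samples, all of them Mmp genes: Mmp1a, Mmp1b, Mmp7, Mmp10, Mmp20, Mmp21 and Mmp27. A further 15 stayed under 1 FPKM in every sample, 12 had a highest sample of 1 to under 5 FPKM, and 12 reached 5 FPKM or more. The number of members at or above 1 FPKM was 22, 21, 22 and 22 in intact, 20, 22, 19 and 20 in unsorted and 14, 12, 14 and 15 in MACS-sorted replicates 1 to 4. MACS-sorted samples thus had fewer members at that level than any sample of the other groups, and fewer genes of the whole table as well (10988 to 11721 against 12014 to 12186 in unsorted and 12293 to 12568 in intact samples). Timp2 was the most abundant gene of the set in every sample, followed by Timp3 and Mmp15 in intact and unsorted DRG and by Mmp25 and Mmp15 in MACS-sorted DRG.

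The summed FPKM of the Timp genes was 254, 256, 252 and 247 in intact, 381, 387, 360.2 and 376 in unsorted and 177, 151, 174 and 125 in MACS-sorted replicates 1 to 4. For the Mmp genes the sums were 79.99, 82.7, 83 and 80.8, then 95.4, 94.7, 89.6 and 87.2, and 67.8, 82.7, 72.7 and 64.7 FPKM in the same order of groups. The 3 groups did not overlap in their Timp sum, which was highest in unsorted samples. The ratio of summed Mmp to summed Timp FPKM lay from 0.314 to 0.329 for intact, from 0.232 to 0.251 for unsorted and from 0.383 to 0.546 for MACS-sorted samples, so it was lowest in unsorted and highest in MACS-sorted DRG. The sums are descriptions of RNA and were given no test. The summed Adamts FPKM was 18.2, 19.7, 20.2 and 26.9 in MACS-sorted samples, below all unsorted (31.4 to 34.8) and all intact samples (31.2 to 36.8).

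**Figure D1:**
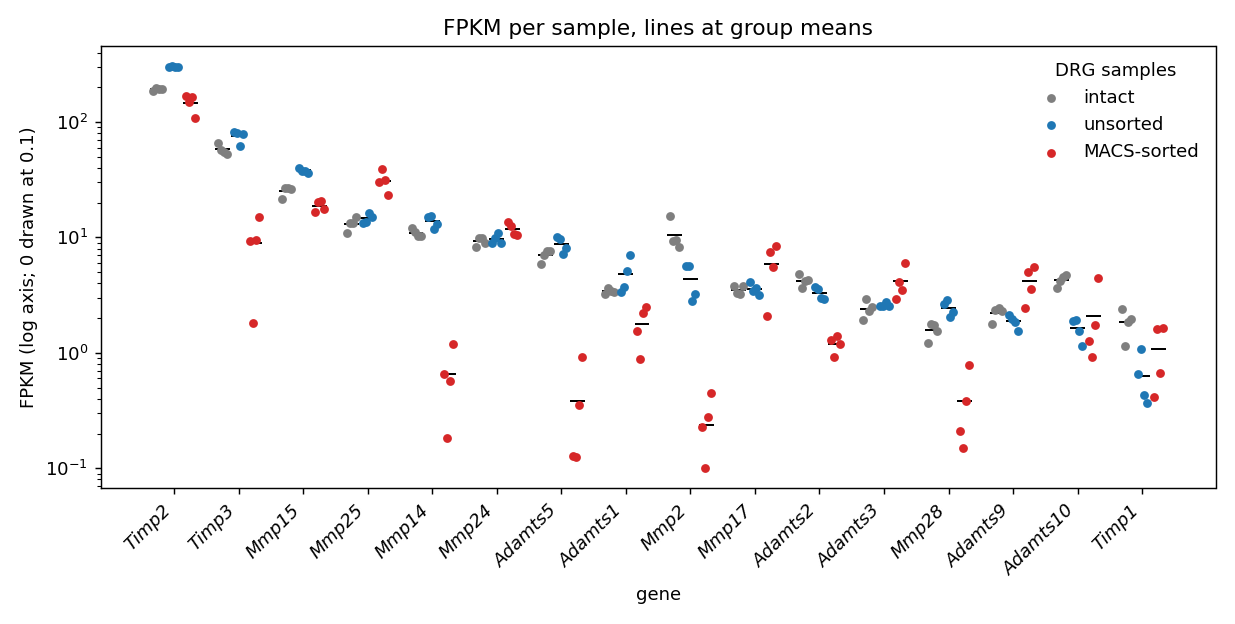
FPKM of 16 Mmp, Adamts and Timp genes (x axis, ordered by their mean in unsorted samples) in each of the 12 samples, on a log axis, with 1 point per sample, colours for the groups and lines at the group means; a value of 0 is drawn at 0.1. Timp2 lies highest, Mmp25 is higher in every MACS-sorted sample than in any other sample, and Mmp14, Adamts5, Mmp2 and Timp3 lie lower in every MACS-sorted sample than in any other sample.

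The comparison of MACS-sorted with unsorted samples asks what the sort added or removed among dissociated cells. Mmp14, Mmp2, Adamts5, Timp3 and Mmp28 were strongly depleted in MACS-sorted samples, Mmp15, Timp2, Adamts1 and Adamts2 were depleted to a lesser degree, and Mmp25, Adamts9 and Adamts3 were enriched. Genes were tested with limma on log2(FPKM + 0.1) where their mean over the 8 samples was at least 1 FPKM, and a gene passed at an adjusted p under 0.05 over all genes tested. Of 18 members tested, 3 passed as higher and 9 as lower in MACS-sorted samples, where 18.8% of the 12038 genes tested passed as higher and 27.7% as lower. With the added criteria of a log2 ratio of group means beyond 0.5 and more than 5 FPKM as the mean of the higher group, 1 member was higher and 5 were lower, against 8.15% and 12.5% of all genes tested. The median log2-fold change of the 18 members was −0.50, and that of all genes tested was −0.04. The other 28 members were too low to be tested. Without MACS-sorted replicate 4 the count of higher members was 5, Mmp24 and Adamts8 being added, with 21.35% of all genes tested higher. Quantile normalization also gave 5 higher beside 9 lower members, with 33.0% of all genes tested higher and 22.6% lower. In all bulk samples of this kind, fewer cells of a type and less RNA per cell cannot be told apart.

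The comparison of unsorted with intact samples asks what dissociation did. Timp2, Mmp15, Mmp28, Timp3 and Mmp14 were higher in unsorted samples, while Mmp2, Timp1 and Adamts10 were lower. Of 21 members tested, 5 passed as higher and 3 as lower, against 14.8% and 7.79% of 12392 genes tested. With the fold change and FPKM criteria 2 members, Timp2 and Mmp15, were higher and 1, Mmp2, was lower, against 4.29% and 2.76% of genes. The median log2-fold change was 0.07 for the members and 0.01 for all genes tested. The count of higher members fell to 2 or 3 when any of intact replicates 2, 3 and 4 or unsorted replicates 1, 2 and 4 was left out, and to 2 when unsorted replicates 1 and 2 were averaged. Of all genes tested, 8.48 to 11.3% were higher in these fits, in place of 14.8%. Timp2 and Mmp15 were past the test without each of the replicates. Both comparisons use the same unsorted samples, so that an unsorted sample with a high value raises one difference and lowers the other.

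MACS-sorted and intact samples were compared as well. Of 18 members tested, 4 were higher and 9 were lower in MACS-sorted samples, against 14.1% and 20.6% of 12234 genes tested, and with the fold change and FPKM criteria 1 was higher and 4 were lower, against 7.54% and 10.7%. Mmp25 (log2-fold change 1.22), Adamts9 (0.81), Adamts3 (0.73) and Mmp24 (0.35) were the higher members. Mmp2 (−5.17), Adamts5 (−4.19), Mmp14 (−4.07), Timp3 (−3.01), Adamts2 (−1.74), Adamts10 (−1.24), Adamts1 (−1.0), Mmp15 (−0.42) and Timp2 (−0.41) were the lower ones. The median log2-fold change was −0.41 for the members tested and −0.04 for all genes tested. The count of higher members was 1 without intact replicate 1, 3 or 4 or MACS-sorted replicate 2 and 2 without intact replicate 2, and the count of lower members was 5 without intact replicate 3. Of all genes tested, 17.003% were higher without intact replicate 1, above the 14.1% with all replicates. Without intact replicate 2, 3 or 4 or MACS-sorted replicate 2, 10.94, 10.495, 11.002 and 11.285% were higher, in that order. Lower were 16.674% without intact replicate 3, in place of 20.6%. Mmp25, Mmp2, Adamts5, Mmp14, Timp3 and Adamts2 kept an adjusted p under 0.05 without each replicate in turn. The other 7 lost the call without at least 1 replicate, Adamts3 without intact replicate 1, 3 or 4 or MACS-sorted replicate 2 and Adamts10 without any replicate other than intact replicate 1 and MACS-sorted replicate 4. Adamts8 gained a call without MACS-sorted replicate 4 (log2-fold change 0.89 with an adjusted p of 0.005) and Mmp17 without MACS-sorted replicate 1 (0.98 with an adjusted p of 0.0022). Quantile normalization gave 6 higher and 7 lower members in place of 4 and 9, and with it 25.2% of all genes tested were higher and 16.6% were lower.

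**Figure D2:**
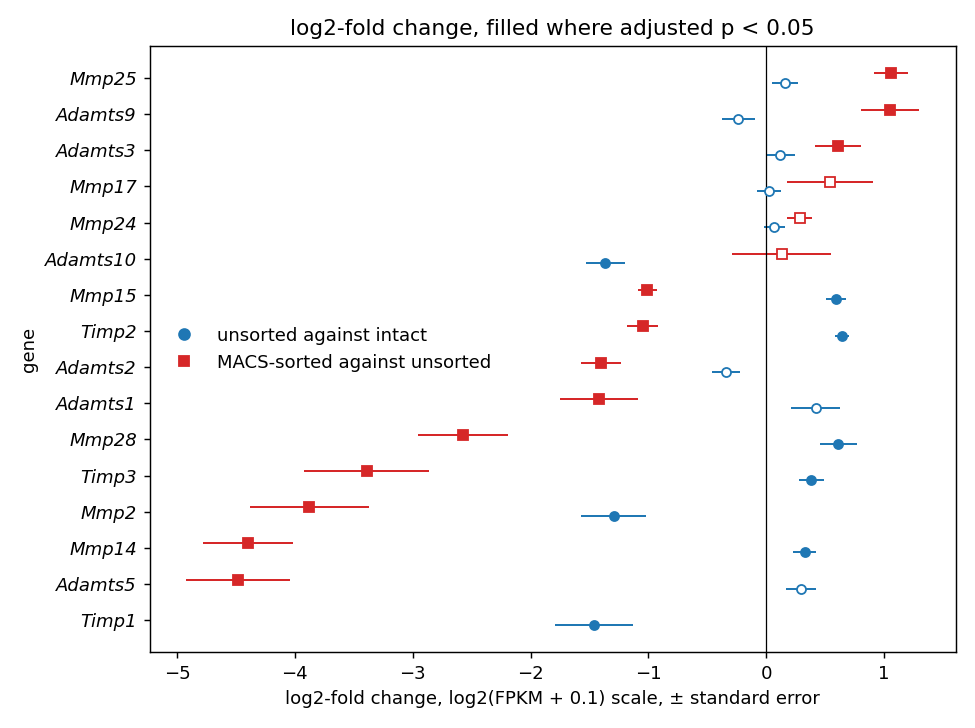
log2-fold change (x axis, log2(FPKM + 0.1) scale, bars for ± the standard error of limma) of 16 Mmp, Adamts and Timp genes in unsorted against intact (circles) and MACS-sorted against unsorted samples (squares), filled where the adjusted p is under 0.05. Adamts5 (−4.48), Mmp14 (−4.40) and Mmp2 (−3.88) lie farthest to the left for MACS-sorted against unsorted samples, and Timp1 has no square because it was not tested there.

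Among the inhibitors, Timp2 is a secreted protein that also joins Mmp14 at the cell surface in the activation of the Mmp2 precursor. Timp2 was at 185, 197, 194 and 191 FPKM in intact, 298, 305, 298 and 297 FPKM in unsorted and 167, 148, 164 and 108 FPKM in MACS-sorted replicates 1 to 4. The groups did not overlap, unsorted samples were highest, and the lowest of all was MACS-sorted replicate 4. Timp2 rose from intact to unsorted samples (log2-fold change 0.64, standard error 0.06, limma adjusted p = 0.00076) and fell from unsorted to MACS-sorted samples (log2-fold change −1.05, standard error 0.13, limma adjusted p = 0.00013). Against intact DRG, MACS-sorted samples were lower by a smaller amount (log2-fold change −0.41, standard error 0.14, limma adjusted p = 0.049), and this call was lost in 13 of 18 alternatives, with a highest adjusted p of 0.11. As a share of the summed Timp FPKM, Timp2 made up 72.7 to 77.6% of that of intact samples, 78.3 to 82.6% of that of unsorted samples and 86.1 to 97.7% of that of MACS-sorted samples.

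Timp3 differs from the other inhibitors in that it binds to the matrix, and it blocks several Adamts and Adam proteases besides Mmp enzymes. It was at 66.3, 56.97, 55.1 and 52.9 FPKM in intact, 81.5, 80.5, 61.97 and 78.4 FPKM in unsorted and 9.23, 1.82, 9.57 and 15.2 FPKM in MACS-sorted replicates 1 to 4. All MACS-sorted samples lay below all others, replicate 2 lowest and replicate 4 highest, and intact and unsorted samples overlapped. The fall from unsorted to MACS-sorted samples (log2-fold change −3.39, standard error 0.53, limma adjusted p = 0.00058) kept its call in all 19 alternatives. The rise from intact to unsorted samples (log2-fold change 0.38, standard error 0.11, limma adjusted p = 0.036) was lost without any of intact replicates 2, 3 and 4 or unsorted replicates 1, 2 and 4 (log2-fold changes of 0.34 to 0.38 with adjusted p-values of 0.071 to 0.099). In all, 8 of 19 alternatives removed the call, among them the fit of all 12 samples. Over the 19, the log2-fold change was 0.34 to 0.48 and the highest limma adjusted p was 0.61. Timp3 lies within the gene Syn3 on the opposite strand, and 1733 of its 8144 exon bases are also exon bases of Syn3. The sources used here do not state whether counting used strand, so the level of Timp3 may include Syn3 fragments. Syn3 was at 1.15 to 2.74 FPKM over the 12 samples, and 2.58, 2.74, 2.55 and 2.28 FPKM in MACS-sorted replicates 1 to 4.

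Timp1, an inhibitor that many injured and inflamed tissues induce, was low throughout. Its values were 2.404, 1.15, 1.87 and 1.98 FPKM in intact, 0.659, 1.08, 0.431 and 0.365 FPKM in unsorted and 0.418, 1.62, 0.666 and 1.65 FPKM in MACS-sorted replicates 1 to 4. Every unsorted sample was below every intact sample, and MACS-sorted samples overlapped with both groups. Timp1 fell in unsorted against intact samples (log2-fold change −1.46, standard error 0.33, limma adjusted p = 0.016) and was not tested in MACS-sorted against unsorted samples. It lies inside Syn1 on the opposite strand without sharing an exon base, and Syn1 was far more abundant, at 74.9 to 177 FPKM. Timp4 stayed at 0 to 0.831 FPKM, lies inside Syn2, and shares 90 of its 5894 exon bases with it, while Syn2 was at 31.7 to 69.4 FPKM. Values of Timp4 are uncertain for the same reason as those of Timp3.

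Membrane-anchored Mmp enzymes, which act at the surface of the cell that makes them, held most of the Mmp RNA. Mmp14, the activator of Mmp2 and a collagenase at the cell surface, was at 12.1, 11.2, 10.3 and 10.3 FPKM in intact, 15.03, 15.3, 11.9 and 13.1 FPKM in unsorted and 0.6604, 0.182, 0.568 and 1.203 FPKM in MACS-sorted replicates 1 to 4. MACS-sorted samples lay far below both other groups, with replicate 4 the highest and replicate 2 the lowest of them, and intact and unsorted samples overlapped. Mmp14 fell in MACS-sorted against unsorted samples (log2-fold change −4.40, standard error 0.38, limma adjusted p = 1.7e-05). It was higher in unsorted than in intact samples (log2-fold change 0.33, standard error 0.10, limma adjusted p = 0.044), but this call was lost without any of intact replicates 2, 3 and 4 or unsorted replicates 1, 2 and 4 (log2-fold changes of 0.28 to 0.35 with adjusted p-values of 0.075 to 0.12). In all, 11 of 19 alternatives removed the call, among them the fit of all 12 samples and quantile normalization. Over the 19, the log2-fold change was 0.28 to 0.40 and the highest limma adjusted p was 0.54.

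Mmp15, a close relative of Mmp14, was the most abundant Mmp gene of intact and unsorted DRG. It was at 21.6, 26.7, 26.6 and 26.4 FPKM in intact, 40.1, 37.97, 37.7 and 36.2 FPKM in unsorted and 16.7, 20.4, 20.6 and 17.8 FPKM in MACS-sorted replicates 1 to 4. The groups did not overlap, and unsorted samples were highest, as for Timp2. Mmp15 rose in unsorted against intact samples (log2-fold change 0.59, standard error 0.08, limma adjusted p = 0.0035) and fell in MACS-sorted against unsorted samples (log2-fold change −1.01, standard error 0.08, limma adjusted p = 1.2e-05), both without exception among the alternatives. Against intact DRG, MACS-sorted samples were lower (log2-fold change −0.42, standard error 0.11, limma adjusted p = 0.016), and without intact replicate 3 the log2-fold change was −0.39 with an adjusted p of 0.051. Mmp15 gave 40.1 to 42.1% of the summed Mmp FPKM of unsorted samples and 24.7 to 28.4% of that of MACS-sorted samples.

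Mmp24, a membrane-spanning enzyme known from nervous tissue, and Mmp16, another of that type, did not pass in MACS-sorted against unsorted samples. Mmp24 was at 8.301, 9.93, 9.801 and 8.92 FPKM in intact, 8.98, 9.91, 10.8 and 9.03 FPKM in unsorted and 13.5, 12.7, 10.7 and 10.5 FPKM in MACS-sorted replicates 1 to 4. Every MACS-sorted sample was above every intact sample, and MACS-sorted and unsorted samples overlapped. The difference between MACS-sorted and unsorted samples missed the threshold (log2-fold change 0.28, standard error 0.11, limma adjusted p = 0.054) and passed it in 7 of 19 alternatives, among them those without unsorted replicate 3 (0.34 with an adjusted p of 0.04), without MACS-sorted replicate 3 (0.33 with an adjusted p of 0.046) and without MACS-sorted replicate 4 (0.34 with an adjusted p of 0.027). Mmp24 passed against intact DRG (log2-fold change 0.35, standard error 0.12, limma adjusted p = 0.042), a call that 8 of 18 alternatives removed. It shares 637 of 4683 exon bases with BC029722 on the opposite strand, which was at 15.9 to 23.5 FPKM. Mmp16 ranged from 1.27 to 2.71 FPKM and passed in no comparison.

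Mmp25 and Mmp17 are attached to the membrane by a lipid anchor, and Mmp25 is best known from neutrophils. Mmp25 was at 10.9, 13.4, 13.3 and 14.9 FPKM in intact, 13.5, 13.7, 16.4 and 14.9 FPKM in unsorted and 30.2, 39.3, 31.3 and 23.3 FPKM in MACS-sorted replicates 1 to 4. Every MACS-sorted sample was above every other sample, and intact and unsorted samples overlapped. Mmp25 rose in MACS-sorted against unsorted samples (log2-fold change 1.06, standard error 0.14, limma adjusted p = 0.00024) and was the single member that was higher by the fold change and FPKM criteria. In unsorted against intact samples it did not pass (log2-fold change 0.16, standard error 0.11, limma adjusted p = 0.31). It gave 13.6 to 18.4% of the summed Mmp FPKM of intact samples, 14.1 to 18.3% of that of unsorted samples and 36.03 to 47.5% of that of MACS-sorted samples, which made it the most abundant Mmp gene of every MACS-sorted sample.

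Markers of neutrophils went the other way. Of 7 markers of neutrophils, 4 were tested in MACS-sorted against unsorted samples and all 4 fell, with a median log2-fold change of −3.47. Their summed level was 101, 99.6, 135 and 39.9 FPKM in intact, 87.8, 91.7, 38.2 and 42.1 FPKM in unsorted and 38.9, 5.14, 1.78 and 10.3 FPKM in MACS-sorted replicates 1 to 4. S100a8 had the highest mean of them in each group, although S100a9 was above it in unsorted replicate 4 and in MACS-sorted replicate 4. MACS-sorted replicates 1 to 4 held 24.3, 3.77, 0.909 and 3.72 FPKM of S100a8. Elane was listed at 0 in all 4. The part of neutrophils in the result for Mmp25 was not tested.

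Mmp17 was at 3.78, 3.302, 3.25 and 3.76 FPKM in intact, 4.07, 3.41, 3.66 and 3.18 FPKM in unsorted and 2.1, 7.48, 5.58 and 8.36 FPKM in MACS-sorted replicates 1 to 4. MACS-sorted replicates 2, 3 and 4 were above all other samples and replicate 1 was below all of them. Mmp17 therefore did not pass in MACS-sorted against unsorted samples (log2-fold change 0.54, standard error 0.37, limma adjusted p = 0.26), and without MACS-sorted replicate 1 the log2-fold change was 0.96 with an adjusted p of 0.0012. That replicate also decided the count by the fold change and FPKM criteria, which was 2 higher members without it. Without that replicate, 1001 of 12077 genes tested were higher by these criteria, in place of 981 of 12038.

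Among secreted Mmp enzymes, the gelatinase Mmp2, which cuts denatured collagen and basement membrane collagen, was the most abundant in intact DRG. Mmp2 was at 15.4, 9.23, 9.44 and 8.32 FPKM in intact, 5.68, 5.64, 2.79 and 3.22 FPKM in unsorted and 0.228, 0, 0.279 and 0.449 FPKM in MACS-sorted replicates 1 to 4. The groups did not overlap, intact replicate 1 was highest, and unsorted replicates 3 and 4 were lower than replicates 1 and 2. Mmp2 was the only member tested that passed as lower in all 3 comparisons: in unsorted against intact (log2-fold change −1.30, standard error 0.27, limma adjusted p = 0.013), in MACS-sorted against unsorted (log2-fold change −3.88, standard error 0.51, limma adjusted p = 0.00019) and in MACS-sorted against intact samples (log2-fold change −5.17, standard error 0.48, limma adjusted p = 4.3e-05). Without intact replicate 1, the log2-fold change of unsorted against intact samples was −1.10 with an adjusted p of 0.0077. In a fit of all 12 samples it was −1.30 with an adjusted p of 0.071, which removed the call.

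Markers of fibroblasts, cells in which Mmp2 is abundant in many tissues, moved in the same direction as Mmp2. Of 7 fibroblast markers, 6 fell in unsorted against intact samples and 6 in MACS-sorted against unsorted samples, with median log2-fold changes of −1.04 and −5.89. Their summed level was 952, 544, 595 and 503 FPKM in intact, 345, 334, 171 and 225 FPKM in unsorted and 8.64, 8.83, 14.7 and 34.1 FPKM in MACS-sorted replicates 1 to 4. Dcn, which also stands among the matrix substrates given further on, was the most abundant in every sample, and Lum was listed at 0 in MACS-sorted replicates 1, 2 and 3. Intact replicate 1 was highest and unsorted replicates 3 and 4 were lowest of their groups for the summed markers and for Mmp2. The same held for summed macrophage markers (46.9 FPKM in intact replicate 1, 7.85 and 9.44 FPKM in unsorted replicates 3 and 4). It held for summed red blood cell markers too (737, 112 and 172 FPKM in these samples), so the pattern was not particular to fibroblast markers. The part of fibroblast number or of other cells in the result for Mmp2 was not tested.

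The other gelatinase, Mmp9, was at 0.498 to 1.84 FPKM in intact, 0.358 to 0.7797 FPKM in unsorted and 0 to 0.315 FPKM in MACS-sorted samples and was too low to be tested. Mmp28, a secreted enzyme known as epilysin, was at 1.23, 1.78, 1.76 and 1.54 FPKM in intact, 2.64, 2.87, 2.04 and 2.26 FPKM in unsorted and 0.209, 0.1504, 0.384 and 0.778 FPKM in MACS-sorted replicates 1 to 4. The groups did not overlap. Mmp28 fell in MACS-sorted against unsorted samples (log2-fold change −2.57, standard error 0.38, limma adjusted p = 0.00044) and rose in unsorted against intact samples (log2-fold change 0.61, standard error 0.16, limma adjusted p = 0.026). The rise was lost without intact replicate 4 or without unsorted replicate 1, 2 or 4 (log2-fold changes of 0.53 to 0.64 with adjusted p-values of 0.053 to 0.074). In all, 6 of 18 alternatives removed the call, with log2-fold changes of 0.42 to 0.83 and a highest limma adjusted p of 0.23 over the 18. Mmp28 shares 466 of 3874 exon bases with 1700020L24Rik on the opposite strand, which was at no more than 0.243 FPKM.

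Of the remaining Mmp genes, Mmp11, a stromelysin, was at 0.7102 to 1.08 FPKM in intact, 0.743 to 1.03 FPKM in unsorted and 0.281 to 0.517 FPKM in MACS-sorted samples. Mmp23, a short enzyme with its own kind of membrane anchor, was at 1.35 to 2.105, then 0.767 to 1.37, and 0.101 to 0.597 FPKM in the same order of groups. For both genes all MACS-sorted samples were below all unsorted samples. Mmp11 shares 155 of 2778 exon bases with Chchd10 on the opposite strand, which was at 55.8 to 79.7 FPKM in unsorted and 20.3 to 29.1 FPKM in MACS-sorted samples, so its level may include Chchd10 fragments. Mmp23 was tested in unsorted against intact samples alone and did not pass (log2-fold change −0.50, standard error 0.21, limma adjusted p = 0.12). Mmp19, a secreted enzyme of soft tissue, was at 1.24, 0.878, 0.471 and 0.674 FPKM in intact and 0, 0.446, 0 and 0.261 FPKM in unsorted replicates 1 to 4 and was listed at 0 in all 4 MACS-sorted samples. It shares 789 of 3533 exon bases with Tmem198b, which lies on the opposite strand and was at 1.34 to 4.27 FPKM.

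The Mmp genes at or near 0 lie together. A run of 10 Mmp genes, Mmp13, Mmp12, Mmp1b, Mmp3, Mmp1a, Mmp10, Mmp8, Mmp27, Mmp20 and Mmp7, spans 7272514 to 7699416 on chromosome 9 of mm10. They include the collagenases Mmp1a, Mmp1b, Mmp8 and Mmp13, the stromelysins Mmp3 and Mmp10, the macrophage elastase Mmp12, the matrilysin Mmp7 and the enamel protease Mmp20. In this run 6 genes were listed at 0 in all samples, and the highest value of any was 0.852 FPKM, for Mmp13 in intact replicate 3. Mmp13 was at 0.338, 0.2995, 0.852 and 0.512 FPKM in intact, 0.159, 0.107, 0.0478 and 0.1 FPKM in unsorted and 0, 0, 0.0229 and 0 FPKM in MACS-sorted replicates 1 to 4. Every intact sample was above every unsorted sample. Mmp8, a collagenase stored by neutrophils, was at 0.399 to 0.779 FPKM in intact, 0.315 to 0.7496 FPKM in unsorted and 0 to 0.383 FPKM in MACS-sorted samples. Mmp3 and Mmp12 did not exceed 0.112 and 0.0311 FPKM. None of the 10 was tested. Reads of related genes in the run may be divided between them, which makes their values uncertain, though Mmp1a and Mmp1b were both listed at 0 throughout. Mmp21, on chromosome 7, was the single Mmp gene listed at 0 throughout that lies elsewhere.

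**Figure D3:**
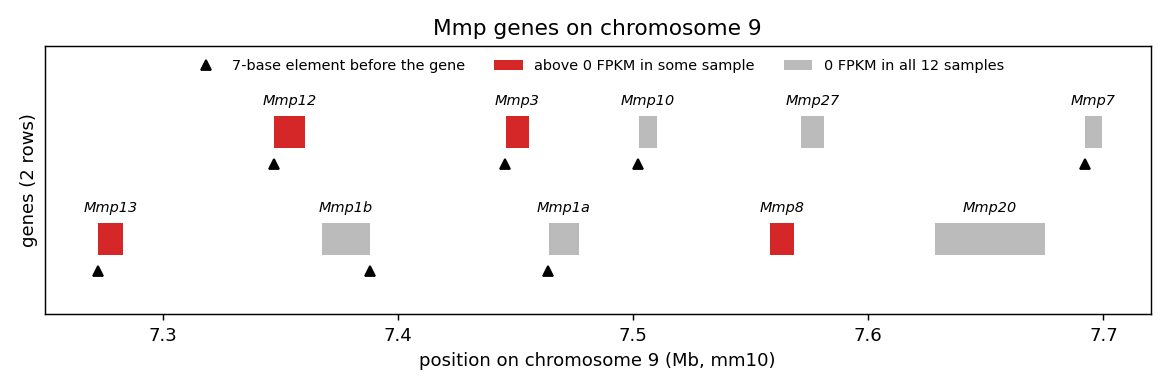
Map of 10 Mmp genes on chromosome 9 of mm10 (x axis in Mb, genes drawn to scale in 2 rows), red where a gene was above 0 FPKM in some sample and grey where it was listed at 0 in all 12 samples; triangles mark the 7-base element in the promoter. The 10 genes lie between 7272514 and 7699416, and 7 of them carry the element.

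What these neighbours share in sequence was looked at because they were low together. RefSeq promoters of build GRCm38.p6, from 250 bases before to 50 bases after the gene start, were at hand for 32 of the 46 members, and the members without one are Adamts4, Adamts5, Adamts6, Adamts7, Adamts8, Adamts10, Adamts15, Adamts16, Adamts19, Mmp2, Mmp9, Mmp16, Mmp17 and Mmp19. The AP-1 element TGAGTCA, which reads TGACTCA on the other strand, was searched for in both forms. It occurred in 7 of the 10 Mmp genes of the run on chromosome 9, in 0 of 22 other members with a promoter and in 5.95% of all 27025 genes with a promoter of the same length. A match describes letters and not a site in use. Stretches of 41 bases around the element, written 5′ to 3′ on the strand of the gene with the element in capitals, show that it lies 35 to 93 bases before the gene start:
Mmp13, chr9:7272462-7272502, plus strand: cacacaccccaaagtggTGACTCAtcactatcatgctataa
Mmp12, chr9:7347313-7347353, plus strand: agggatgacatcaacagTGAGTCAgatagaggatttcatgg
Mmp1b, chr9:7388096-7388136, minus strand: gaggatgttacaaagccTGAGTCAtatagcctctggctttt
Mmp3, chr9:7445759-7445799, plus strand: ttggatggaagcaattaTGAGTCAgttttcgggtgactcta
Mmp1a, chr9:7464051-7464091, plus strand: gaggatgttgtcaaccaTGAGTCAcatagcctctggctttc
Mmp10, chr9:7502262-7502302, plus strand: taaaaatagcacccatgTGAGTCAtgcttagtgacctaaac
Mmp7, chr9:7692010-7692050, plus strand: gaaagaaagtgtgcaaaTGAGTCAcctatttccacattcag

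AP-1 is a dimer of Fos and Jun proteins. Fos was at 4.19, 2.07, 2.67 and 3.43 FPKM in intact, 55.6, 57.7, 191 and 314 FPKM in unsorted and 39.2, 18.7, 47.8 and 52.5 FPKM in MACS-sorted replicates 1 to 4. Jun was at 24.5 to 27.3, then 58.1 to 144, and 36.6 to 56.1 FPKM in the same order of groups. For both genes every dissociated sample was above every intact sample. Of the 7 Mmp genes with the element, 4 were listed at 0 in all 12 samples, and Mmp3 and Mmp12 in every MACS-sorted sample. Of the genes of the run without the element, Mmp27 and Mmp20 were also listed at 0 in all 12 samples and Mmp8 was not. Any part of AP-1 in the level of these genes was not tested. Fos and Jun, like the element, were chosen after values had been seen.

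Among Adamts enzymes that cut proteoglycans, Adamts5, a main aggrecan-cutting enzyme of cartilage, had the most negative log2-fold change of those tested in MACS-sorted against unsorted samples. Adamts5 was at 5.91, 7.11, 7.69 and 7.58 FPKM in intact, 10.1, 9.63, 7.17 and 8.05 FPKM in unsorted and 0.127, 0.126, 0.351 and 0.918 FPKM in MACS-sorted replicates 1 to 4. MACS-sorted samples were all under 1 FPKM, with replicate 4 the highest, and intact and unsorted samples overlapped. It fell in MACS-sorted against unsorted samples (log2-fold change −4.48, standard error 0.44, limma adjusted p = 3.3e-05) and did not pass in unsorted against intact samples (log2-fold change 0.29, standard error 0.13, limma adjusted p = 0.13). Adamts1, its neighbour on chromosome 16, cuts versican and aggrecan and was at 3.24, 3.68, 3.44 and 3.34 FPKM in intact, 3.34, 3.72, 5.11 and 7.07 FPKM in unsorted and 1.54, 0.878, 2.21 and 2.49 FPKM in MACS-sorted replicates 1 to 4. Every MACS-sorted sample was below every other sample, and unsorted replicates 3 and 4 were the highest of all. Adamts1 fell in MACS-sorted against unsorted samples (log2-fold change −1.42, standard error 0.33, limma adjusted p = 0.0061) and did not pass in unsorted against intact samples (log2-fold change 0.42, standard error 0.21, limma adjusted p = 0.17).

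Satellite glia and Schwann cell markers moved with Adamts5, Mmp14, Timp3 and Mmp28 in the sort. All 6 satellite glia markers and 5 of 6 Schwann cell markers given here fell in MACS-sorted against unsorted samples, with median log2-fold changes of −6.07 and −3.05. The satellite glia markers summed to 1985, 1634, 1809 and 1843 FPKM in intact, 2654, 2648, 2295 and 2103 FPKM in unsorted and 114, 89.1, 125 and 189 FPKM in MACS-sorted replicates 1 to 4. For the 6 Schwann cell markers the sums were 2748, 1695, 1883 and 1462, then 1596, 1575, 1153 and 1803, and 566, 514, 560.2 and 1051 FPKM in the same order of groups. Apoe led the satellite glia list in intact and unsorted samples and Glul in MACS-sorted samples, and no marker given of either list was at 0 in every MACS-sorted sample. MACS-sorted replicate 4 was highest of its group for Apoe (8.07, 5.44, 17.5 and 65.1 FPKM in replicates 1 to 4), for both sums and for Adamts5, Mmp14, Timp3 and Mmp28. It was also highest for the summed markers of fibroblasts (34.1 FPKM), endothelial cells (97.6), pericytes and smooth muscle (125) and macrophages (2.47). Fibroblast markers fell in the sort as well, with a median log2-fold change of −5.89, so neither pattern was particular to glial markers. The part of glial or other cells in these results was not tested.

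Adamts9, which cuts versican and aggrecan, was enriched by the sort. Adamts9 was at 1.79, 2.35, 2.45 and 2.305 FPKM in intact, 2.15, 1.96, 1.84 and 1.54 FPKM in unsorted and 2.44, 4.99, 3.598 and 5.59 FPKM in MACS-sorted replicates 1 to 4. Every MACS-sorted sample was above every unsorted sample, and MACS-sorted replicate 1 fell within the range of intact samples. The rise in MACS-sorted against unsorted samples (log2-fold change 1.05, standard error 0.24, limma adjusted p = 0.0059) kept its call in all 18 alternatives, and that against intact DRG (log2-fold change 0.81, standard error 0.25, limma adjusted p = 0.03) did not (log2-fold changes of 0.65 to 1.04 with adjusted p-values of 0.0044 to 0.078 when each replicate was left out). It shares 1381 of 15048 exon bases with A730049H05Rik and 424 with Gm15737, both on the opposite strand, whose levels were not analysed here.

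Adamts8 and Adamts15, neighbours on chromosome 9, did not pass in any comparison of all samples. Adamts15 was at 3.72 to 4.97 FPKM in intact, 3.48 to 4.16 FPKM in unsorted and 3.34 to 4.72 FPKM in MACS-sorted samples, and without intact replicate 1 its log2-fold change of unsorted against intact samples was −0.32 with an adjusted p of 0.024. For Adamts8 unsorted samples held 1.64 to 2.07 FPKM and MACS-sorted replicates 1 to 4 held 3.23, 3.03, 2.76 and 0.684 FPKM. Replicate 4 was lower than all unsorted samples and replicates 1, 2 and 3 were above them. Without MACS-sorted replicate 4 its log2-fold change against unsorted samples was 0.63 with an adjusted p of 0.0042, in place of 0.13. Adamts20, an enzyme known from skin pigment patterns, was at 1.56 to 2.07 FPKM in intact and 1.504 to 2.12 FPKM in unsorted samples and at 0 to 0.164 FPKM in MACS-sorted samples, below all others. Adamts4, another aggrecan-cutting enzyme, was at 0.0207 to 0.367 FPKM. On the opposite strand, Adamts7 shares 122 of 6282 exon bases with Tbc1d2b and Adamts8 489 of 4613 with Gm29724.

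The procollagen-processing enzymes moved apart. Adamts2, which removes the amino-terminal propeptide of collagens type I to III, was at 4.78, 3.65, 4.22 and 4.28 FPKM in intact, 3.76, 3.599, 2.99 and 2.93 FPKM in unsorted and 1.28, 0.9298, 1.39 and 1.198 FPKM in MACS-sorted replicates 1 to 4. Adamts3, a relative that also takes part in the activation of the lymphatic growth factor Vegfc, was at 1.95, 2.902, 2.33 and 2.48 FPKM in intact, 2.57, 2.53, 2.78 and 2.56 FPKM in unsorted and 2.96, 4.14, 3.51 and 6.05 FPKM in MACS-sorted replicates 1 to 4. All MACS-sorted samples were below all others for Adamts2 and above all others for Adamts3. Adamts2 fell in MACS-sorted against unsorted samples (log2-fold change −1.40, standard error 0.17, limma adjusted p = 0.00012) and Adamts3 rose (log2-fold change 0.61, standard error 0.20, limma adjusted p = 0.03). The call of Adamts3 was lost without any of the 4 unsorted replicates or MACS-sorted replicate 2 (log2-fold changes of 0.59 to 0.64 with adjusted p-values of 0.052 to 0.068). Adamts14, the remaining procollagen enzyme, was at 0.491 to 0.552 FPKM in intact, 0.135 to 0.235 FPKM in unsorted and 0.0375 to 0.404 FPKM in MACS-sorted samples.

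Adamts10, which is linked to fibrillin microfibrils, was the single Adamts gene that passed in unsorted against intact samples. It was at 3.67, 4.197, 4.53 and 4.77 FPKM in intact, 1.88, 1.93, 1.56 and 1.14 FPKM in unsorted and 1.27, 0.9204, 1.76 and 4.47 FPKM in MACS-sorted replicates 1 to 4. Every unsorted sample was below every intact sample, and MACS-sorted replicate 4 reached the range of intact samples while the other MACS-sorted samples did not. Adamts10 fell in unsorted against intact samples (log2-fold change −1.36, standard error 0.17, limma adjusted p = 0.0022), in every alternative, and did not pass in MACS-sorted against unsorted samples (log2-fold change 0.13, standard error 0.42, limma adjusted p = 0.82).

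The other Adamts genes stayed under 1 FPKM. Adamts6 was at 0 to 0.359 FPKM, Adamts13, the enzyme that cuts von Willebrand factor, at 0 to 0.0696 FPKM, Adamts16 at 0.0949 to 0.313 FPKM and Adamts18 at 0 to 0.227 FPKM over the 12 samples. Adamts7 and Adamts12, which cut the cartilage protein Comp, were at 0.677 to 0.884 and 0.225 to 0.445 FPKM in unsorted and at 0 to 0.0652 and 0 to 0.0281 FPKM in MACS-sorted samples, below all samples of the other groups. Adamts17 was at 0.517 to 0.984 FPKM in unsorted and 0 to 0.0388 FPKM in MACS-sorted samples. Adamts19 went the other way, at 0.107 to 0.296 FPKM in intact, 0.0692 to 0.119 FPKM in unsorted and 0.335 to 0.736 FPKM in MACS-sorted samples, which were above all others. None of these 8 genes was abundant enough to be tested.

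Other genes of protease activation, inhibition and substrate supply were taken as 5 lists of 48 partner genes. In MACS-sorted against unsorted samples 30 were tested, of which 4 rose and 22 fell, with a median log2-fold change of −1.34. In unsorted against intact samples 34 were tested, of which 8 rose and 10 fell, with a median of −0.03. MACS-sorted against intact samples gave 5 higher and 21 lower of 31 tested. The shares of all genes that passed are those given for the members.

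The partner genes that rose most in MACS-sorted against unsorted samples were Plaur, the receptor that gathers the plasminogen activator urokinase at the cell surface, Adam8, a membrane protease of leukocytes and other cells, and Cd44, a hyaluronan receptor that holds Mmp enzymes at the surface. Plaur was at 2.405, 2.61, 2.62 and 2.34 FPKM in unsorted and 7.88, 7.95, 6.66 and 6.44 FPKM in MACS-sorted replicates 1 to 4 (log2-fold change 1.49, standard error 0.11, limma adjusted p = 5.9e-06). Adam8 was at 1.82, 1.62, 1.75 and 1.67 FPKM in unsorted and 5.52, 4.39, 3.99 and 6.06 FPKM in MACS-sorted replicates 1 to 4 (log2-fold change 1.47, standard error 0.15, limma adjusted p = 4.4e-05). Cd44 was at 64, 64.01, 58.3 and 64.2 FPKM in unsorted and 143, 125, 132 and 88.2 FPKM in MACS-sorted replicates 1 to 4 (log2-fold change 0.94, standard error 0.13, limma adjusted p = 0.00035). For all 3 genes, every MACS-sorted sample was above every unsorted sample. Plau, urokinase itself, was the remaining gene that rose (log2-fold change 0.61, standard error 0.13, limma adjusted p = 0.0034). Plat, the tissue activator of plasminogen, fell (log2-fold change −1.59, standard error 0.46, limma adjusted p = 0.018), and plasminogen itself, Plg, was at no more than 0.0845 FPKM.

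Serpine2, an inhibitor of thrombin and plasminogen activators that glia secrete, fell most. Serpine2 was at 55.9, 56.4, 43.9 and 48.4 FPKM in unsorted and 0.3103, 0.201, 0.551 and 1.88 FPKM in MACS-sorted replicates 1 to 4 (log2-fold change −6.33, standard error 0.48, limma adjusted p = 7.9e-06). Papln, an Adamts-like matrix protein, went from 3.93, 3.602, 3.69 and 2.69 FPKM to 0.0701, 0.0303, 0.0138 and 0.229 FPKM (log2-fold change −4.39, standard error 0.38, limma adjusted p = 1.5e-05). Hapln1, which links proteoglycans to hyaluronan, went from 10.1, 10.03, 9.67 and 10.4 FPKM to 0.489, 0.0898, 0.618 and 0.636 FPKM (log2-fold change −4.36, standard error 0.39, limma adjusted p = 1.9e-05). For all 3 genes every MACS-sorted sample was below every unsorted sample. All 3 Adamts-like genes tested fell, as did 7 of 8 proteoglycan and matrix substrates and 5 of 6 other inhibitors and receptors. Of 7 activating proteases, furins and their inhibitors tested, 2 rose and 4 fell, and of 6 membrane-bound Adam proteases tested 1 rose and 3 fell.

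In unsorted against intact samples the largest rises past the test were those of Papln (log2-fold change 0.98, standard error 0.26, limma adjusted p = 0.027), of the brain proteoglycan brevican, Bcan (log2-fold change 0.94, standard error 0.13, limma adjusted p = 0.0032), and of Hapln1 (log2-fold change 0.88, standard error 0.19, limma adjusted p = 0.014). Bcan was at 12.6, 16.2, 19.9 and 17 FPKM in intact and 29.9, 31.2, 34.8 and 29.1 FPKM in unsorted replicates 1 to 4. Papln was at 0.931 to 2.25 FPKM and Hapln1 at 3.399 to 6.58 FPKM in intact samples, below all unsorted samples. The largest falls past the test were those of Dcn (log2-fold change −1.72, standard error 0.33, limma adjusted p = 0.0093), of fibronectin, Fn1 (log2-fold change −1.36, standard error 0.29, limma adjusted p = 0.013), and of the mast cell chymase Mcpt4 (log2-fold change −0.99, standard error 0.27, limma adjusted p = 0.031). Dcn was at 118, 115, 52.5 and 76.1 FPKM in unsorted replicates 1 to 4, and Fn1 was at 19.6, 14.97, 20.6 and 20.5 FPKM in intact and 10.8, 10.6, 4.42 and 5.39 FPKM in unsorted replicates 1 to 4. Unsorted replicates 3 and 4 were lowest for Dcn and Fn1, as they were for Mmp2. Mcpt4 was at 2.25, 1.87, 1.01 and 1.53 FPKM in intact and 0.715, 1.07, 0.7497 and 0.554 FPKM in unsorted replicates 1 to 4, which overlapped. The count of rises dropped from 8 to between 2 and 5 when any replicate other than intact replicate 1 was left out. In those fits 8.48 to 11.3% of all genes tested were higher, in place of 14.8%.

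Markers of the other cell types that a ganglion can hold were counted in the same fits. In MACS-sorted against unsorted samples 6 of 7 nociceptor markers rose, all 6 markers of large-diameter neurons fell, and 3 of 7 general neuronal markers rose while 2 fell. None of 7 endothelial markers passed there. Both macrophage markers tested, all 3 bone and cartilage markers tested, 4 of 5 pericyte and smooth muscle markers tested and 2 of 3 oligodendrocyte markers tested fell, Rgs5 of pericytes and Mobp of oligodendrocytes rose, and all 6 red blood cell markers tested rose. No skeletal muscle marker was tested there. The large-diameter neuron markers, led by Nefh in unsorted and MACS-sorted samples, summed to 821, 813, 1007 and 944 FPKM in unsorted and 148, 77.8, 122 and 109 FPKM in MACS-sorted replicates 1 to 4. Endothelial markers summed to 78.2, 76.1, 63.2 and 66.2 and 68.5, 29.6, 61.9 and 97.6 FPKM. MACS-sorted replicate 2 was lowest of its group for the endothelial sum, Timp3, Mmp14 and Adamts1. No large-diameter neuron or endothelial marker was listed at 0 in a MACS-sorted sample, and Tagln, of smooth muscle, was listed at 0 in all 4. The part of these cell types in the results for the proteases was not tested.

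In unsorted against intact samples 4 of 7 general neuronal markers, 4 of 6 large-diameter neuron markers, 1 of 7 nociceptor markers, 3 of 6 satellite glia markers, 6 of 7 endothelial markers and 2 of 5 pericyte and smooth muscle markers tested rose, 1 of the latter fell, and 6 of 7 macrophage and 6 of 7 skeletal muscle markers fell. Of 2 oligodendrocyte markers tested 1 fell, and no neutrophil, Schwann cell, red blood cell or bone and cartilage marker passed. In the same comparison Timp2 and Mmp15 rose, as did neuronal, satellite glia and endothelial markers, though not Schwann cell markers. Timp1, Mmp2 and Adamts10 fell there, as did fibroblast, macrophage and skeletal muscle markers. In MACS-sorted against unsorted samples fibroblast and macrophage markers fell too, while Adamts10 did not pass and Timp1 was not tested. The macrophage markers summed to 46.9, 23.7, 24.5 and 25.4 FPKM in intact and 15.8, 14.4, 7.85 and 9.44 FPKM in unsorted replicates 1 to 4. C1qa led them in each of these samples except unsorted replicate 3, where Csf1r was higher. The part of macrophages or of any other cell type in the results for Timp1, Timp2, Mmp2, Mmp15 and Adamts10 was not tested.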

How the data were processed

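RNA of intact, dissociated unsorted and MACS-sorted DRG, 4 samples each, was sequenced by the authors from polyA-selected libraries made with a directional kit. Per the submitters' processing notes and the paper, the authors used TopHat2 for alignment to mm10, with at most 2 alignments reported per read, SAMtools to merge lanes and Cufflinks 2.1.1 to estimate expression. FPKM values as deposited, for each gene and sample, were the starting point, and whether strand was used in counting is not given in the sources used here. All 12 samples were used, and gene starts in the table, which count from 0, are printed counting from 1.

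The tests used limma 3.58.1 (R 4.3.3) on log2(FPKM + 0.1), two-sided, with a trend in the prior variance, on the 8 samples of the groups compared, leaving out genes whose mean was under 1 FPKM, and with Benjamini-Hochberg adjustment over all genes tested. The log2-fold change is a difference on this scale and understates the change of low genes. The limit of 0.5 for the log2 ratio of group means and of 5 FPKM are those of the paper, with limma in place of CuffDiff, which needs aligned reads. The paper also removed genes higher in MACS-sorted samples that a published red blood cell data set expressed. That step was not taken here, so the shares of all genes include such genes. The fits were checked on simulated data with known changes.

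The members, the 5 lists of partner genes and the 14 lists of cell type markers were chosen with earlier results of these data known, and results for some markers are not reported here. Per-sample values are given for members past the test in MACS-sorted against unsorted or unsorted against intact samples and for members with a group mean above 5 FPKM, and others are given by range or, where named with values, were chosen after their values were seen. Partner genes are named where they passed with the 3 largest changes in either direction of these comparisons, and Plau, Plat and Plg were named after their values were seen. Relative depth was taken as the most common ratio of values under 0.1 FPKM to those of intact replicate 1. Gene overlaps are from GENCODE release M21, on the build of the FPKM table. As alternatives, pseudocounts of 1 and 0.01 were tried, and also no filter, a filter of 5 FPKM, a fit of all 12 samples, a replicate block, limma without the trend, median-ratio size factors, quantile normalization, removal of red blood cell marker genes, each replicate left out, and unsorted replicates 1 and 2 averaged.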

Additional observations from a re-analysis of the deposited data

Results flagged for a closer look

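In groups of 4 samples, a sample was marked when its gap to the nearest other sample took up so much of the group's range that it passed Dixon's limit. Chance marks about 1 in 20 groups, and 7 of 78 pairs of gene and group were marked. In intact replicate 1, Mmp2 was at 15.4 FPKM against 8.32 to 9.44 FPKM in the other intact samples, Mmp15 was at 21.6 FPKM against 26.4 to 26.7 FPKM, and Dcn was at 518 FPKM against 215 to 244 FPKM. That library also held the skeletal muscle RNA described above, and the part of tissue composition in these values was not tested. In unsorted replicate 3, Timp3 was at 62.0 FPKM against 78.4 to 81.5 FPKM, Cd44 was at 58.3 FPKM against 64.0 to 64.2 FPKM and Adamts3 was at 2.78 FPKM against 2.53 to 2.57 FPKM. In MACS-sorted replicate 4, Mcpt4 was at 0.0846 FPKM and was listed at 0 in the other MACS-sorted samples. With all other values at 0 the rule marks any value above 0, so this mark says little.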

How the results depend on the processing

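Of 1029 recomputed log2-fold changes of members, 917 kept their direction and side of the threshold, 76 lost the call, 14 gained it and 22 reversed, and none of the reversed ones belonged to a member past the test in the same comparison. The cause of these changes was not tested, except that a filter changes the number of genes that can be counted.

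For MACS-sorted against unsorted samples the count of higher members was 1 with a filter of 5 FPKM, 5 with quantile normalization and 2 to 5 when each replicate was left out, and that of lower members was 19 without a filter and 4 with a filter of 5 FPKM. Of all genes tested, 21.6, 33.0 and 15.5 to 21.35% were higher in these settings. Lower were 24.7% of 17657 genes without a filter and 25.7% of 8128 genes with the filter of 5 FPKM. By the fold change and FPKM criteria, 1 to 2 members were higher when each replicate was left out. Of all genes, from 923 of 12110 tested to 1019 of 12028 tested were higher by these criteria in those fits. With the filter of 5 FPKM, 1 partner gene was higher and 10 were lower.

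For unsorted against intact samples the count of higher members was 2 in a fit of all 12 samples, 2 with unsorted replicates 1 and 2 averaged and 2 to 5 when each replicate was left out. Of all genes tested, 9.51, 8.73 and 8.48 to 22.2% were higher in these settings. Lower were 6.4% without a filter, 6.1% with a filter of 5 FPKM and 4.37% in the fit of all 12 samples. The count of lower members was 6 without a filter and 1 with a filter of 5 FPKM, and by the fold change and FPKM criteria it was 0 in the fit of all 12 samples with limma, where the adjusted p of Mmp2 was 0.071. By these criteria 245 of 12392 genes tested were lower in that fit, in place of 342. The count of higher partner genes was 3 in the fit of all 12 samples, 2 with unsorted replicates averaged and 2 to 10 when each replicate was left out, and that of lower partner genes was 2 with a filter of 5 FPKM and 5 in the fit of all 12 samples.

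For MACS-sorted against intact samples the count of higher members was 2 with a filter of 5 FPKM and 1 to 4 when each replicate was left out, and that of lower members was 22 without a filter, 4 with a filter of 5 FPKM and 5 to 12 when each replicate was left out. Of all genes tested, 17.735 and 10.495 to 17.003% were higher in the first 2 of these settings. Lower were 20.684% without a filter, 15.374% with the filter of 5 FPKM and 16.674 to 21.604% when each replicate was left out. By the fold change and FPKM criteria 2 members were higher with quantile normalization and 1 to 2 when each replicate was left out. Of all genes, 1248 of 12303 tested were higher by these criteria with quantile normalization, in place of 922 of 12234. When each replicate was left out, from 828 of 12326 to 1021 of 12248 genes were higher by them. With the filter of 5 FPKM 3 partner genes were higher and 8 were lower.

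The reversed log2-fold changes were those of MACS-sorted against unsorted samples for Adamts8 (−0.066 to 0.63 when each replicate was left out), Adamts10 (−0.30 to 0.42) and Adamts15 (−0.10 to 0.063), and those of unsorted against intact samples for Adamts20 (−0.10 to 0.092, and 0.16 with quantile normalization), Mmp16 (−0.12 to 0.088, 0.19 with quantile normalization and 0.023 with unsorted replicates averaged) and Mmp17 (−0.042 to 0.074). For MACS-sorted against intact samples that of Adamts15 was 0.10 with quantile normalization, which moved the median log2-fold change of all genes from −0.04 to 0.13, and from −0.04 to 0.10 for MACS-sorted against unsorted samples.

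The labels give the groups the same replicate numbers without pairing them, and the deviations of same-numbered samples from their group means had correlations of −0.19 to 0.09. Of the 4 MACS-sorted samples, 1 correlated best with the unsorted sample of its own number. With the replicate number as a block, 5 partner genes were higher in unsorted than in intact samples in place of 8, and the counts of members were 3 and 9, 5 and 3, and 3 and 8 in the order of comparisons above. With the block, 17.2% of all genes tested were higher and 25.7% lower, then 11.6 and 6.84%, and 11.1 and 18.3% in the same order. The paper gives an approximate number of reads per sample, stated once for all samples. The table holds no counts, so no interval was set on low values.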

Other observations

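Adamts1 and the early response genes were highest in the same unsorted libraries. Adamts1 was at 3.34, 3.72, 5.11 and 7.07 FPKM in unsorted replicates 1 to 4, Fos at 55.6, 57.7, 191 and 314 FPKM and Jun at 58.1, 60.8, 121 and 144 FPKM. Replicates 3 and 4 were above replicates 1 and 2 for all 3 genes, and replicate 4 was the highest. In MACS-sorted replicates 1 to 4, where Fos was at 39.2, 18.7, 47.8 and 52.5 FPKM, Adamts1 was at 1.54, 0.878, 2.21 and 2.49 FPKM, with replicate 2 lowest and replicate 4 highest for both. Jun was at 56.1, 36.6, 54.9 and 52.4 FPKM there, with replicate 2 lowest and replicate 1 highest. Intact samples held Adamts1 at 3.24 to 3.68 FPKM with Fos at 2.07 to 4.19 FPKM. Unsorted replicates 3 and 4 also held less fibroblast RNA than replicates 1 and 2, and these genes were chosen after their values were seen.

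MACS-sorted replicates 1 to 4 held 0.355, 0.335, 0.5198 and 0.736 FPKM of Adamts19, 2.96, 4.14, 3.51 and 6.05 FPKM of Adamts3 and 2.1, 7.48, 5.58 and 8.36 FPKM of Mmp17. Replicate 4 was the highest of its group for all 3 genes, while it was the lowest for Mmp25, Timp2, Adamts8, Plaur and Cd44.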
